A study of Mus musculus with 4 samples.

Results

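The genes described here are 10 genes of the liver endothelium and of angiogenesis, Vegfa, Kdr, Flt1, Tek, Eng, Cdh5, Pecam1, Stab1, Stab2 and Lyve1, chosen by name among the 36161 gene names on the array. All 10 were on it, through 13 probes of 60 bases. RNA of whole liver was labelled with Cy3 and hybridized to 1-colour Agilent arrays with 1 array in each of 4 groups, control (C) females (CF), microsomic (M) females (MF), control males (CM) and microsomic males (MM). Microsomic animals are those of abnormally low birth weight. The methods of the study take as controls littermates of normal birth weight, whereas the sample labels speak of normal and microsomal litters. All groups carry the label C57BL/6J at embryonic day 20, whereas the methods of the study name newborn C57BL/6 N mice. No transgene, deletion or treatment is given for any of them. Whether the RNA of an array came from a single animal or from several is not given in the sources used here. The methods describe replicate experiments in every group, of which a single array per group was analysed here, and which experiment it stands for is not given. With 1 array per group there was no spread between animals to set a difference against, so the values of a pair of arrays carry no p-value. The purpose of the comparison was to find liver genes whose expression went with low birth weight in each gender.

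The sinusoids of the liver are capillaries lined by a fenestrated endothelium without a continuous basement membrane. These cells clear waste molecules from the blood through scavenger receptors, and they depend on VEGF made largely by the hepatocytes around them. Before birth the liver is also the main site of blood formation, so whole-liver RNA holds hepatocytes, blood precursors, macrophages and endothelium together. In RNA of a whole organ, fewer cells of a type and less RNA per cell cannot be told apart.

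Vegfa, Kdr and Flt1 were each measured at a pair of positions, and the probes of a gene did not always differ between the arrays in the same way, so sequences of their probes are given to show what was hybridized, beside those of Tek, Pecam1 and Lyve1. They are written 5′ to 3′ with runs of C and T in capitals (5 bases of C or T with at least 3 C), a composition that 8.64% of the 55681 probes of the array held at 4 or more starting positions. Probes with an open reading frame that lie inside the coding sequence are given whole, and of the others the first 30 bases.
Vegfa, A_52_P638895, first 30 bases: cagatcggtgacagtcactagcttgtcctg
Kdr, A_55_P2094469: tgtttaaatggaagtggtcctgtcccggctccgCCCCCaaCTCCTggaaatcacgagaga
Kdr, A_51_P316553, first 30 bases: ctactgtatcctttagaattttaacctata
Flt1, A_51_P398723, first 30 bases: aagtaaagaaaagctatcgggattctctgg
Flt1, A_52_P405145, first 30 bases: TCCCTatcccaactacacattcaatcttct
Tek, A_55_P2262136: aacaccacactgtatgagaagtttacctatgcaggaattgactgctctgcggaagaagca
Pecam1, A_55_P2087087: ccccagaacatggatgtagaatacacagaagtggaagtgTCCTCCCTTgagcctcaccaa
Lyve1, A_52_P686785, first 30 bases: cactttgtgtgcctttaacaaatacattat

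On the mouse build mm9 (NCBI37), as the array annotation gives it, the brighter Vegfa probe, A_52_P638895, lies on the minus strand at chr17:46154387-46154446. The Kdr probes lie on the minus strand at chr5:76330395-76330454 and chr5:76329309-76329368. The Flt1 probes lie on the minus strand of the same chromosome at chr5:148373791-148373850 and chr5:148465976-148466035. Tek was probed on the plus strand at chr4:94540624-94540683, Pecam1 on the minus strand at chr11:106540864-106540923 and Lyve1 on the minus strand at chr7:117994171-117994230. The other probes lie at chr2:32537268-32537327 for Eng and chr8:106668159-106668218 for Cdh5 on the plus strand, and at chr14:31952288-31952347 for Stab1 and chr10:86303982-86304041 for Stab2 on the minus strand. Only the Pecam1 probe among the 13 had 4 or more of the C and T runs, with 5. The other 12 had between 0 and 2.

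Hepatocyte markers were bright on all 4 arrays, with 9 of 9 well above background, but the arrays differed in more than their labels. Of 59305 non-control spots, between 56.1% and 65.3% were well above background, and the 75th percentile of their signals was 676 on CF, 893 on MF, 628 on CM and 925 on MM. All 4 arrays share a slide, with M in its column 3 and C in its column 1, so slide column and M or C cannot be told apart. The female arrays lie in its row 1 and the male arrays in its row 2, so slide row and gender cannot be told apart either. Markers of heart muscle were high on CF. Of 18 such genes, 16 had their highest value on CF, and their summed level was 247 times the 75th percentile of the array there, against 7.57 on CM, 3.43 on MM and 2.95 on MF. Myh6, the alpha heavy chain of cardiac myosin, had a log2 value of 4.76 on CF and -0.89 on CM, and was not well above background on MF and MM. Markers of intestinal epithelium were high on MF, where 12 of 14 had their highest value, with a summed level of 102 against 39.4 on MM, 10.6 on CF and 13.2 on CM. In the latter list Fabp2, the intestinal fatty acid binding protein, was also bright on MM. Both of these marker lists were written after genes of these organs had been seen to stand out. Myocardium is rich in capillaries, whose endothelium expresses Kdr, Flt1, Tek, Eng, Cdh5 and Pecam1, and every MF vs CF value below was measured against the CF array. The part of heart or intestinal RNA in the values of the 10 genes was not tested.

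Few of the 10 genes differed between M and C by more than 1.5-fold (0.585 on the log2 scale). In MF vs CF, 2 of 10 did, with Vegfa 1.80-fold higher and Lyve1 1.51-fold lower in MF, where 40.9% of all 25536 genes compared were past the same limit (19.9% higher and 21.0% lower). In MM vs CM, 0 of 10 were past it, against 40.8% of 26313 genes (17.7% higher and 23.1% lower). Among genes well above background on both arrays of the pair, as all 10 genes were, the shares were 37.5% and 38.3%. No share was computed among genes of like signal. Of all genes past 1.5-fold, 48.5% were higher in MF and 43.4% higher in MM. The latter shares were 79.7% and 78.4% in the unscaled signal, and the male share was 61.0% after median centring. The median difference of the 10 genes was -0.24 in MF vs CF and -0.17 in MM vs CM, beside -0.04 and 0.00 over all genes. The latter medians include genes whose difference was set to 0 because an array was too dim for a fold. Over genes well above background on both arrays, as the 10 genes were, they were -0.11 and -0.07. Without a filter on dim probes they were -0.19 and -0.22. Both medians of the 10 genes became positive, 0.16 and 0.39, in the deposited signal without scaling between arrays. There the median over all genes was 0.34 and 0.50. Centring on the median of the array also gave a positive median in MM vs CM (0.06). The size of a difference, regardless of sign, had a median of 0.32 among the 10 genes in both comparisons. Among all genes, which include genes dim on 1 array of the pair, it was 0.47 and 0.45.

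Flt1 was the sole gene of the 10 that was higher in M in both genders, and Tek, Pecam1, Stab1 and Lyve1 were lower in M in both. Of the 4, each changed sign in at least 1 comparison when the deposited signal was left unscaled, where 9 of 10 genes were higher in MF and 10 of 10 in MM. Flt1 kept its sign in both comparisons under all 11 settings run. Those 11 include the setting of the text, and changed filters on dim probes repeat its values for all 10 genes. The mean over probes repeats them except for Vegfa and Kdr, and keeping marked spots except for Kdr. Vegfa, Kdr, Eng, Cdh5 and Stab2 had opposite signs in females and males, and each of them changed sign in at least 1 comparison under another setting. Only 1 of 10 was thus higher in M in both genders, where 20.9% of 23966 genes were. By any amount, 3 of 10 were higher in MF than in CF and 4 of 10 higher in MM than in CM, where 46.2% and 46.4% of all genes were. Altogether 5 of 10 had the same sign in both genders, where 44.5% of all genes did, and none was past 1.5-fold the same way in both, where 6.98% were. All genes include those too dim on an array for a fold. Such genes have no sign, so they count neither as higher nor as having the same sign. That lowers the shares of 20.9%, 46.2%, 46.4% and 44.5%. The 10 genes include no such gene, so their counts are not like for like with these shares. Shares without such genes were not computed.

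**Figure D1:**
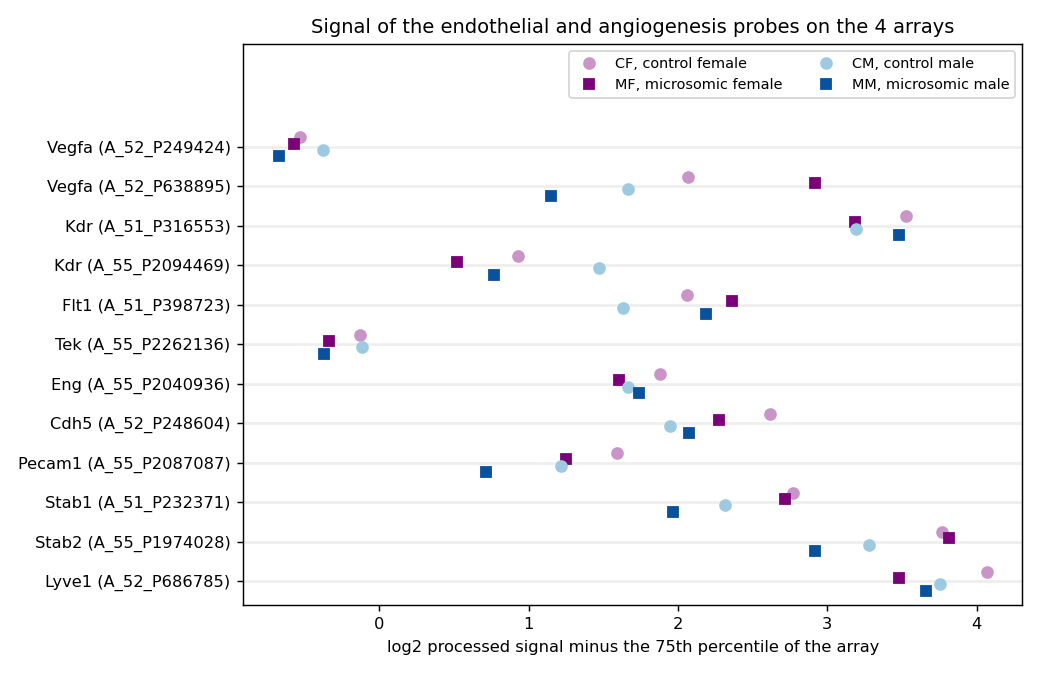
Log2 signal after subtraction of the log2 75th percentile of each array (x axis) for the 12 probes of the 10 genes without an outlier mark (y axis), with 1 point per array and control arrays as circles. Values are to be compared within a line and not between probes. Vegfa probe A_52_P638895 has its highest point on MF (2.92) and its lowest on MM (1.15), and Lyve1 its highest on CF (4.07).

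Vegfa encodes the main growth factor of the endothelium. Its brighter probe, A_52_P638895, had log2 values of 2.07 on CF, 2.92 on MF, 1.66 on CM and 1.15 on MM. MF was thus the highest array and MM the lowest, with the controls between them. The difference was 0.85 in MF vs CF and -0.51 in MM vs CM. The probe was printed at 2 spots, which gave 0.81 and 0.89 in females and -0.63 and -0.40 in males. The other Vegfa probe, A_52_P249424, had -0.53 on CF, -0.57 on MF, -0.38 on CM and -0.67 on MM, differences of -0.04 and -0.29. The 1.80-fold difference in females was therefore seen with 1 of 2 probes, and as the mean over both it was 0.41. The sign in females was positive under all 11 settings (0.41 to 1.25), and the value was past 1.5-fold under 9 of them, not with the mean over probes (0.41) nor with normexp background correction and quantile normalization (0.56, the normexp setting). In males it was negative under 10 of 11, with 0.05 in the unscaled signal. Against CM in place of CF, MF was higher by 1.26. MF was also the array with the highest summed level of macrophage markers (318) and of intestinal markers (102), whose part in the Vegfa value was not tested.

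Kdr (VEGFR2) is the receptor through which VEGF drives endothelial growth. Its brighter probe, A_51_P316553, was printed at 10 spots, the only probe of the 10 genes with more than 2, and 7 of them were without an outlier mark on any array. Their mean was 3.53 on CF (SD 0.33), 3.19 on MF (SD 0.17), 3.19 on CM (SD 0.40) and 3.48 on MM (SD 0.30), over 7 spots of the same array. The spots of MF and CF overlapped, and so did those of MM and CM. Spot by spot, MF was lower than CF at 6 of 7 spots, with a mean of -0.34 and an SD of 0.37 (n = 7 spots). MM was higher than CM at 6 of 7 spots, with a mean of 0.29 and an SD of 0.34. Each mean was smaller than the SD of its own spots, but that SD is of single spots, and a mean over 7 spots varies less. With all 10 spots the means were -0.44 and 0.12. The probe in the coding sequence, A_55_P2094469, had 0.93 on CF, 0.52 on MF, 1.47 on CM and 0.76 on MM, differences of -0.41 and -0.71. In females the probes had the same sign, and in males they had opposite signs, so that the mean over probes in MM vs CM was -0.21. The spread between spots is technical and says nothing of the spread between repeated hybridizations or between animals.

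**Figure D2:**
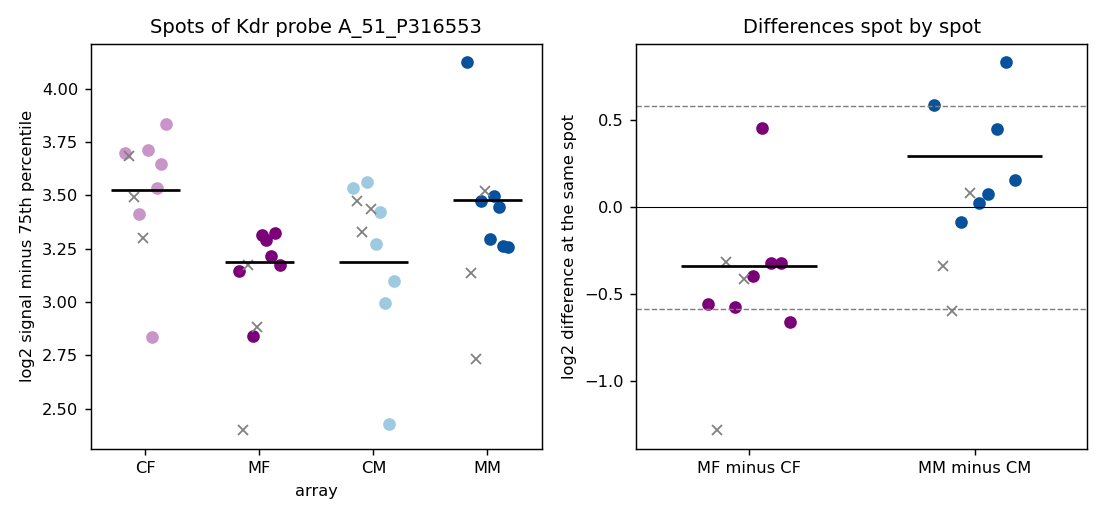
Kdr probe A_51_P316553 at its 10 spots. Left, log2 signal minus the 75th percentile for each array, with grey crosses for the 3 spots with an outlier mark on any array and a bar at the mean of the other 7. Right, the log2 difference at the same spot, with dashed lines at 1.5-fold, where 6 of 7 spots lie below 0 for MF minus CF and 6 of 7 above 0 for MM minus CM.

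Flt1 (VEGFR1) binds VEGF tightly and in its soluble form keeps it from Kdr. Probe A_51_P398723 had 2.06 on CF, 2.36 on MF, 1.63 on CM and 2.18 on MM. Both M arrays lay above both C arrays, by 0.30 in MF vs CF and 0.55 in MM vs CM. After median centring MM lay just below CF, so this order across genders rests on the scaling. Neither difference passed 1.5-fold. The range over the settings was 0.19 to 0.70 in females and 0.39 to 1.11 in males. Against CM in place of CF, MF was higher by 0.73. The second Flt1 probe, A_52_P405145, was marked by the software for a non-uniform spot on MF and was left out. Its log2 value was 2.72 on MF, -3.21 on CM, -5.21 on CF and -6.36 on MM, the last pair not well above background. The values of probe A_51_P398723, by contrast, spanned less than 1 log2 unit over the 4 arrays.

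Tek (TIE2) is the receptor of the angiopoietins, which steady vessels. It had -0.13 on CF, -0.34 on MF, -0.12 on CM and -0.37 on MM. Both M arrays lay below both C arrays, by 0.21 in females and 0.26 in males (log2), and the control arrays differed by 0.01. This order across genders rests on the scaling. CM and CF differed by -0.11 (log2) in their 75th percentile and by 0.31 in their median. After median centring MF lay above CM for Tek, and the control arrays lay further apart. Eng (endoglin), a co-receptor for BMP9 and BMP10 on endothelium, had 1.88 on CF, 1.60 on MF, 1.67 on CM and 1.74 on MM. Its differences were -0.28 and 0.07, and the values of the M and the C arrays overlapped. In the normexp setting, which starts before detrending and changes background correction, offset and scaling together, the Eng values became 0.43 and -0.84. No setting changed detrending alone. The detrending ratio by which the software had divided the Eng spot was 1.16 on MF, 0.68 on CF, 0.76 on MM and 1.35 on CM.

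Cdh5 (VE-cadherin) and Pecam1 (CD31) are adhesion proteins at the contacts between endothelial cells. Cdh5 had 2.61 on CF, 2.27 on MF, 1.95 on CM and 2.08 on MM, with CF the highest. Its differences were -0.34 in MF vs CF and 0.13 in MM vs CM. CM was 1.58-fold lower than CF (-0.66), the sole difference between the control arrays past 1.5-fold among the 10 genes, where 46.3% of 25195 genes were past it. The detrending ratio of the Cdh5 spot was 1.41 on CF and 0.59 on CM, and in the normexp setting Cdh5 was past 1.5-fold in both comparisons, lower in MF (-0.59) and higher in MM. Pecam1 had 1.59 on CF, 1.25 on MF, 1.22 on CM and 0.71 on MM, with MM the lowest. Its differences were -0.34 and -0.50, from 2 spots that gave -0.64 and -0.03 in females and -0.52 and -0.49 in males. Against CM in place of CF, the Pecam1 value of MF was higher by 0.04.

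Stab1 and Stab2 (stabilin 1 and 2) are scavenger receptors of sinusoidal endothelium, and Lyve1 binds hyaluronan on sinusoidal and lymphatic endothelium. Stab1 had 2.77 on CF, 2.72 on MF, 2.31 on CM and 1.97 on MM. Stab2 had 3.76 on CF, 3.82 on MF, 3.28 on CM and 2.91 on MM. For both genes the female arrays lay above the male arrays and MM was the lowest. The differences were -0.05 for Stab1 and 0.05 for Stab2 in females, and -0.34 and -0.37 in males. In the normexp setting the values in females became -0.44 for Stab1 and -0.49 for Stab2, and the Stab2 value in males 0.26.

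Lyve1 had 4.07 on CF, 3.48 on MF, 3.75 on CM and 3.66 on MM. MF was the lowest array and CF the highest, whereas after median centring CM was the lowest. The difference was -0.59 in MF vs CF, just past the 1.5-fold limit, and -0.09 in MM vs CM. It stayed negative in females under all 11 settings (-0.79 to -0.19) and was past 1.5-fold under 7 of them. Apart from quantile normalization and the normexp setting, those that passed repeat the same value of -0.59. The value was within 1.5-fold after median centring (-0.49), without scaling (-0.19), and with the GC trend (-0.46) or the position trend (-0.38) removed. In males it was positive under 3 of 11. Against CM in place of CF, the Lyve1 value of MF was lower by 0.27 on the log2 scale, within 1.5-fold.

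CF was the highest of the 4 arrays for 6 of 10 genes and MM for none. CM was lower than CF for 9 of 10, with 1 past 1.5-fold lower and 0 higher, where 19.7% and 26.6% of all genes were. The number past 1.5-fold was 9 after median centring, 5 in the normexp setting and 2 without scaling. Shares of all genes were not computed for those settings, nor for the highest array and for CM below CF by any amount. CM minus CF had a median of -0.39 over the 10 genes, beside 0.00 over all genes, with those set to 0 for want of a fold included. The former is larger in size than either M vs C median of the 10 genes. MF against CM, arrays of different gender, had a median of 0.18 over the 10 genes, with Vegfa and Flt1 past 1.5-fold and higher, where 21.0% of all genes were past it higher and 30.4% lower (51.5% in all). MM against CF had a median of -0.47, with Vegfa, Pecam1, Stab1 and Stab2 past 1.5-fold and lower, where 16.7% of all genes were past it lower and 22.6% higher (39.3% in all). The summed level of heart muscle markers was 247 on CF against 7.57 on CM, the next highest array.

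**Figure D3:**
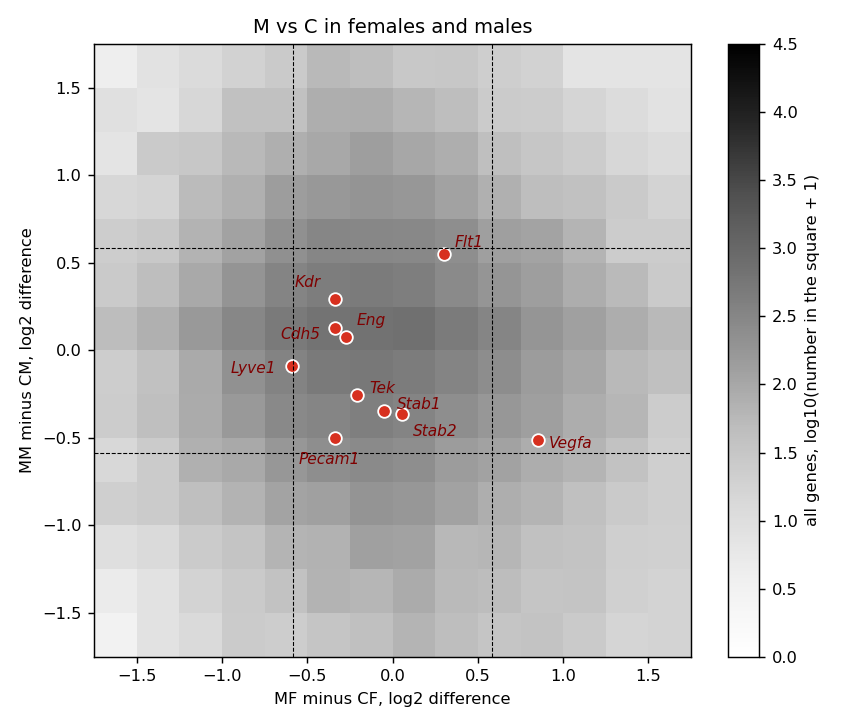
Log2 difference in females (MF minus CF, x axis) against that in males (MM minus CM, y axis) for the 10 genes (red points), over a grey map of the number of genes per square among the 23966 genes compared in both genders. Dashed lines mark 1.5-fold. Vegfa lies at 0.85 and -0.51, Flt1 at 0.30 and 0.55, and 8 of 10 points lie inside the lines on both axes.

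The spread between spots of the same arrays gives a scale for these values. Over 266 probes printed at 10 spots, the median SD of the log2 difference between arrays at the same spot was 0.30 for MF minus CF and 0.32 for MM minus CM. The error model of the software gave the 12 probes between 0.14 and 0.15 (log2) per spot and array. The female values of Vegfa, Kdr, Flt1, Cdh5, Pecam1 and Lyve1 were larger in size than the former SD, Flt1 only just (0.301 against 0.299), as were the male values of Vegfa, Flt1, Pecam1, Stab1 and Stab2. That SD is of single spots, so it overstates the technical spread of Vegfa, Kdr and Pecam1, whose values are means over spots. When limma was fitted to the 4 arrays with M or C and gender as terms, the genders standing in for replicates with 1 residual degree of freedom, no gene of 19298 had an adjusted p under 0.05 (0.0%), and 851 (4.41%) had an unadjusted p under 0.05. The M minus C estimate for Flt1 was 0.43 with a standard error of 0.41 (unadjusted p = 0.34 and adjusted p = 0.995 by limma with Benjamini-Hochberg adjustment). That for Pecam1 was -0.42 with a standard error of 0.41 and for Lyve1 -0.34 with a standard error of 0.42. The adjusted p of the 10 genes lay between 0.995 and 0.999 in limma. The estimate for Vegfa was 0.17 with a standard error of 0.48, its values in females and males having opposite signs.

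**Figure D4:**
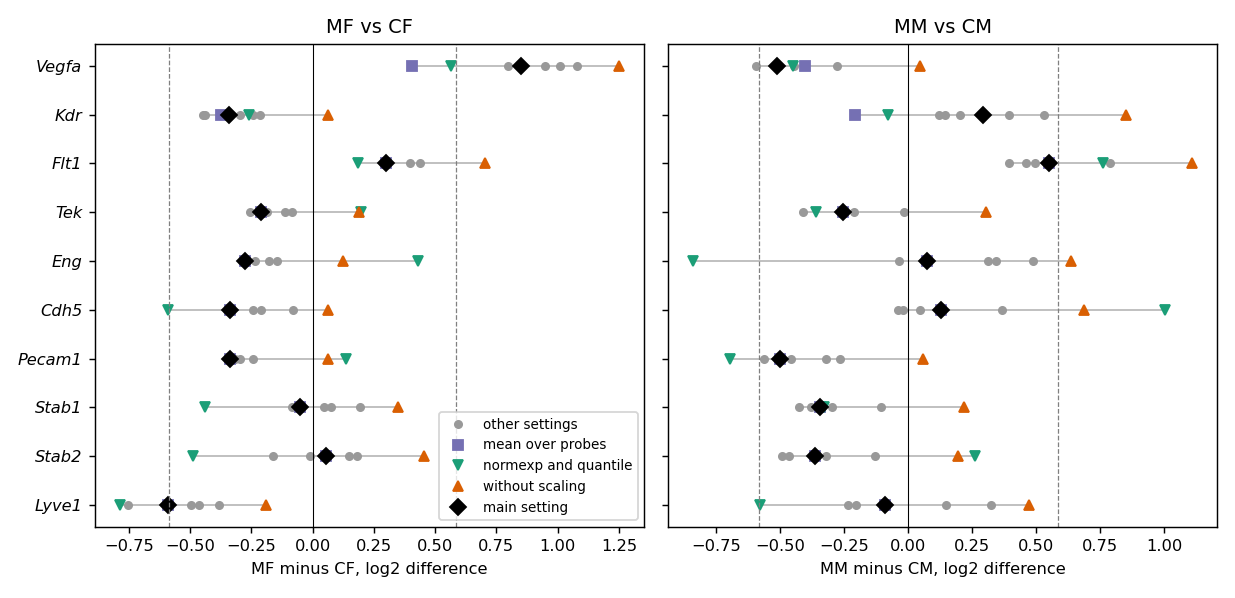
Log2 difference of each of the 10 genes in MF vs CF (left) and MM vs CM (right) under 11 settings of scaling, background, filter, probe and trend removal, with a diamond for the setting used in the text, a triangle for the unscaled signal and grey circles for settings not named in the key. Dashed lines mark 1.5-fold. Vegfa and Lyve1 in females and Flt1 in both comparisons stay on the same side of 0.

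Among the other ligands and receptors of the VEGF family, 7 genes, the median difference was -0.06 in MF vs CF and -0.09 in MM vs CM, and both were positive in the unscaled signal, after median centring and in 1 or 2 settings more. In females 1 gene was past 1.5-fold, where 40.9% of all genes were. It was Vegfc, a ligand of the lymphatic receptor Flt4, higher in MF by 0.61. In males 0 were past it higher and 2 lower, where 17.7% and 23.1% of all genes were. Among the latter was Figf (VEGF-D), at -0.82 in males and -0.50 in females. Of the 5 genes of the angiopoietin and Tie group, 4 could be compared. In females their median was 0.06, negative under 3 of 11 settings, with 0 past 1.5-fold, where 40.9% of all genes were. In males it was 0.27, with 1 past 1.5-fold, where 40.8% were. Angpt2, which counters Tek activation by Angpt1, had 0.50 and 0.19. Ptprb, a phosphatase that acts on Tek, was higher in MM by 0.65 and had 0.14 in females, and its mean over probes in females was negative (-0.61).

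Of the 18 genes of endoglin and ALK1 signalling, in MF vs CF 2 were past 1.5-fold higher and 3 lower, where 19.9% and 21.0% of all genes were. In MM vs CM 7 were higher and 1 lower, where 17.7% and 23.1% were. Whether the genders differ was not tested. Their median was 0.05 in females, which turned to -0.02 in the normexp setting, and 0.34 in males, positive under all 11 settings. Id1, a direct target of BMP signalling, had 3.12 on CF, 2.26 on MF, 2.30 on CM and 3.59 on MM, so that MF was lower than CF by 0.87 on the log2 scale and MM higher than CM by 1.29. Bmp10, a ligand of endoglin made in the atria of the heart, was lower in MM than in CM (-2.11) and had 0.24 in females.

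Markers of sinusoidal endothelium other than the 10 genes had a median of -0.27 over 13 genes in MF vs CF and 0.21 over 12 genes in MM vs CM. The former was positive in the unscaled signal and the latter negative in the normexp setting. In females 0 were past 1.5-fold higher and 2 lower, where 19.9% and 21.0% of all genes were. In males 1 was higher and 1 lower, where 17.7% and 23.1% were. Fcgr2b, the inhibitory Fc receptor of these cells, was lower in MF (-1.15) and had 0.29 in males. Clec4g (LSECtin) had -0.35 in females and was higher in MM (1.21). Wnt2 was not well above background on MM and CM, and Aqp1 had no probe without an outlier mark.

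Genes shared by most endothelial cells, 29 in all, were well above background on all 4 arrays. In MF vs CF 2 were past 1.5-fold higher and 9 lower, where 19.9% and 21.0% of all genes were, with a median of -0.19 that became 0.21 in the unscaled signal. In MM vs CM 3 were higher and 2 lower, where 17.7% and 23.1% of all genes were. The male median was -0.01 and was positive under 5 of 11 settings. Sox18, a transcription factor of endothelium, had 1.36 on CF, -0.27 on MF, 0.67 on CM and 1.20 on MM, and was thus lower in MF (-1.63) with 0.53 in males. CF was also the array with the highest summed level of heart muscle markers, whose part in these values was not tested. Sox7, a relative of Sox18, had 0.21 in females and was higher in MM (1.45).

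The list of Notch, arterial, venous and tip cell genes had a median of -0.41 over 18 genes in females, with 1 past 1.5-fold higher and 7 lower, where 19.9% and 21.0% of all genes were. In males the median was 0.10, with 1 higher and 2 lower, where 17.7% and 23.1% were. The female median stayed negative under all 11 settings (-0.43 to -0.0046), and the male median was negative under 4. Aplnr, the apelin receptor, was lower in M in both genders (-0.86 and -1.60). Hey2, a Notch target that is also expressed in heart, was not well above background on MF and MM. Its signal was at least 4.30-fold lower in MF than in CF and at least 21.1-fold lower in MM than in CM. In the normexp setting its log2 values were -0.28, within 1.5-fold, and -1.53. Heart muscle markers were higher on the C array in both pairs, with a median over the list of -6.78 in MF vs CF and -1.37 in MM vs CM.

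Genes of the hypoxia response, which include targets of the same HIF factors that act on Vegfa, had a median of 0.51 over 25 genes in MF vs CF, positive under all 11 settings, and 0.19 in MM vs CM, which was negative (-0.36) in the normexp setting. In females 11 were past 1.5-fold higher and 2 lower, where 19.9% and 21.0% of all genes were, and in males 3 were higher and 4 lower, where 17.7% and 23.1% were. Egln3, a HIF prolyl hydroxylase, was higher in M in both genders (1.67 and 1.32), as were Pfkfb3 (1.25 and 1.22) and Hk2 (0.97 and 1.07), enzymes of glycolysis. These 3 were past 1.5-fold under all 11 settings in both comparisons. Adm, the vessel-dilating peptide adrenomedullin, was lower in both (-0.68 and -0.81), through a probe with 5 of the C and T runs.

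The 15 genes of vascular matrix and angiogenesis inhibitors had medians of -0.21 and -0.14, which were positive under 4 and 2 of 11 settings. In females 5 were past 1.5-fold higher and 3 lower, where 19.9% and 21.0% of all genes were. In males 1 was higher and 2 lower, where 17.7% and 23.1% were. Lama4, a laminin chain of vessel walls, was lower in M in both genders (-0.84 and -0.86).

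**Figure D5:**
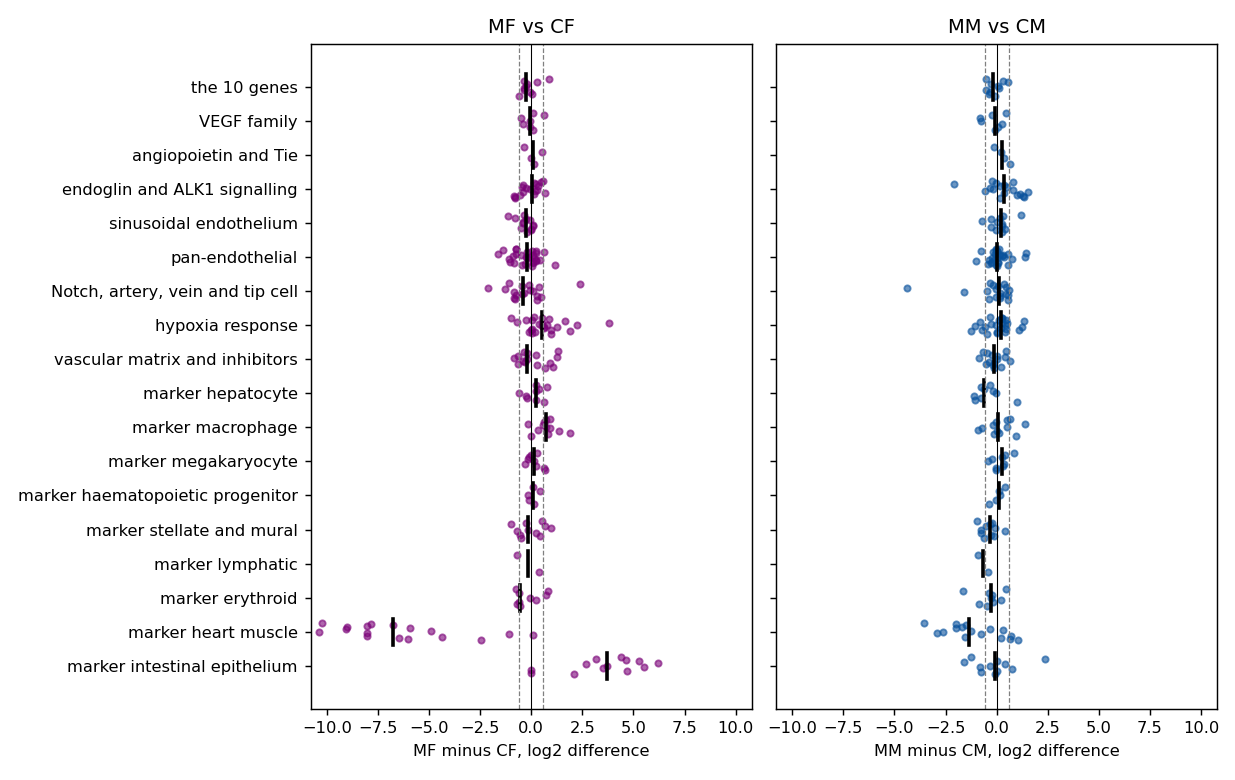
Log2 difference of each gene (points) and the median (black bar) for the 10 genes and for each list, in MF vs CF (left) and MM vs CM (right), with dashed lines at 1.5-fold. The heart muscle list reaches -10.39 in MF vs CF and the intestinal list 6.18, whereas the endothelial lists lie mostly within 2 units of 0.

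Markers of the other cells of the liver also differed between the arrays. Macrophage markers had a median of 0.73 over 12 genes in MF vs CF. Of these, 9 were past 1.5-fold higher and 0 lower, where 19.9% and 21.0% of all genes were. Their summed level was 318 on MF against 142 on CF. In MM vs CM the median was 0.05, with 154 against 147. Clec4f, a lectin of Kupffer cells, was higher in M in both genders (0.93 and 0.63). Hepatocyte markers had a median of 0.22 over 9 genes in females and -0.61 in males, with summed levels of 7273 on MF, 6906 on CF, 4525 on MM and 6797 on CM. After quantile normalization these medians were -0.36 and 0.00. Erythroid markers had -0.54 and -0.26 over 9 genes, with Hbb-b1, a beta globin, lower in both (-0.68 and -0.86). Markers of stellate and mural cells had -0.16 and -0.32 over 11 genes. Of these Des, the intermediate filament desmin, was lower in MF (-1.01) with -0.32 in males. It had -0.31 on CF, -1.33 on MF, -1.67 on CM and -1.98 on MM. CF was also the array with the highest summed level of heart muscle markers, whose part in the Des value was not tested. Of 3 lymphatic markers, 2 were on the array by the listed name, with a median of -0.17 and -0.67, and Prox1, which hepatocytes also express, was lower in both (-0.70 and -0.93). Megakaryocyte markers, cells that also carry Pecam1, had 0.16 and 0.28 over 9 genes, with Pf4, platelet factor 4, at 0.28 and 0.83 and Treml1 at 0.65 and -0.04. Markers of blood progenitors, which carry Tek and Kit, had 0.11 and 0.09 over 5 genes. None was past 1.5-fold, where 40.9% and 40.8% of all genes were. Kit had 0.11 and 0.38, and Gata2 0.41 and 0.09. Under all 11 settings the sign held for the macrophage, erythroid and blood progenitor medians in females and the lymphatic median in males, and each of the other medians of this paragraph changed sign or reached 0 under at least 1. The part of these cells in the values of the 10 genes was not tested.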

How the data were processed

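Gene expression was measured in whole-liver RNA on 4 Agilent SurePrint G3 Mouse arrays, 1 per group. Scans were read by the authors with Agilent Feature Extraction 10.7.3.1. The processed signal they deposited is an intensity from which a fitted background was subtracted and which was divided by a detrending ratio, also deposited, and their table of values equalled it in all 62976 spots. It had not been normalized between arrays. Here signals were divided by the 75th percentile over all non-control spots of their array and taken to log2. Spots with a non-uniformity or population outlier mark on any array were left out, spots of a probe were averaged, and a gene was taken from its brightest probe. At least 1 array of a pair had to be well above background. For a dim array the lowest signal well above background, or the signal itself if higher, was used, which gives a lower bound of the difference, or no fold (0) where that limit lay beyond the bright array. limma 3.58.1 (R 4.3.3) was fitted to genes well above background on all 4 arrays, with Benjamini-Hochberg adjustment, and was tested on simulated data. The number of arrays limits the precision of every value.

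The 10 genes and the gene lists were chosen with earlier results of these data known, and the heart and intestine lists and the comparisons with the control of the other gender were chosen after seeing the data. Named from a list are the genes past 1.5-fold the same way in both genders (at most 4), or, if there is none, the gene with the largest difference in each comparison. From the heart and intestine lists 1 each is named. Alternatives were median centring, quantile normalization, normexp (offset 50) with quantile normalization, no scaling, a stricter and no filter on dim probes, the mean over probes, marked spots kept, a 2-fold limit, removal of GC and position trends, and for limma no gender term, an intensity trend and the threshold of the methods. Summed levels are sums of signals divided by the 75th percentile. Positions of probes (mm9) and gene symbols came from the annotation in the array files, and exons and untranslated regions of that build were not analysed here. That a probe lies in coding sequence is background knowledge and was not checked against an annotation. The sequence of 1 probe is not reported here.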

Additional observations from a re-analysis of the deposited data

Results flagged for a closer look

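Among the 10 genes and the genes named from the lists, the differences of 5 genes had opposite signs in females and males and were in each gender larger than the median spot-to-spot SD of a difference (0.30 and 0.32). Whether they differ between the genders was not tested, since each value rests on 1 pair of arrays. The value in females minus that in males was 1.36 on the log2 scale for Vegfa (0.85 and -0.51). It was -2.16 for Id1 (-0.87 and 1.29) and -1.56 for Clec4g (-0.35 and 1.21). It was -2.16 for Sox18 (-1.63 and 0.53) and 1.45 for Pdgfrb, a receptor of mural cells (0.51 and -0.94). Id1, Clec4g, Sox18 and Pdgfrb were named because each had the largest difference of its list in 1 comparison. Their size in that comparison thus follows from the choice. List genes that the text does not name are not counted here, and some, such as Ddit4 (1.91 and -1.27), also meet the rule. The share of all genes that meet it was not computed.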

How the results depend on the processing

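No paired analysis was possible because the labels give no replicate numbers and each group has 1 array, and for the same reason no replicate could be left out. Of the 10 genes, 2 were past 1.5-fold in MF vs CF, and the count was 1 after median centring, with the mean over probes, after removing the GC trend and after removing the position trend, and 0 with a 2-fold limit. Shares of all genes were 40.2%, 37.4%, 40.2%, 38.5% and 19.7% in that order. The count was 2 with normexp, Cdh5 and Lyve1, both lower, and 2 without scaling, Vegfa and Flt1, both higher. Those settings had 30.6% and 45.0% of all genes past 1.5-fold. In MM vs CM (0) the count was 1 after median centring, 1 after quantile normalization, 4 with normexp, 4 without scaling and 4 against CF in place of CM. Shares of all genes there were 45.0%, 43.0%, 47.0%, 57.2% and 39.3% in that order. Between the control arrays (1) the count was 9 after median centring, 5 with normexp and 2 without scaling. Shares of all genes were not computed for the latter. Over all genes, MF vs CF gave 10445, 16150 without a filter and 5020 at 2-fold, and MM vs CM gave 10725, 18955 and 5892. limma (0) gave 9 without scaling, all higher in M. At the threshold of the methods, an unadjusted limma p under 0.01 and over 1.5-fold, 163 of 19298 genes passed. That number is without adjustment and is not to be set beside the adjusted counts. Hnf4a, a regulator of hepatocyte genes, had 0.64 in MF vs CF and -0.0885 after quantile normalization, and 1.01 in MM vs CM. The cause was not tested. Of 200 alternative values of the 10 genes, 166 stayed within the spot-to-spot SD and 34 moved further. All 12 probes used were well above background on all 4 arrays, so the stricter filter and the absent filter could not move any of these values. The mean over probes could move only Vegfa and Kdr, and keeping marked spots moved only Kdr. Part of the 166 were therefore the same value again and not separate support.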
